A study of Mus musculus with 28 samples.

Results

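The genes described here are 10 listed adhesion genes of mouse macrophages: 3 ligands of the immunoglobulin family (Vcam1, Icam1 and Icam2), 5 integrin α chains (Itga4, Itga6, Itgal, Itgam and Itgax) and the β chains Itgb1 and Itgb2. All 10 of the listed genes were found by symbol among 55487 gene IDs, and all 10 were among the 13631 genes that passed the filter on low values (1 TPM or more in 4 or more libraries). TPM is a gene's share of a library's transcripts per unit of length, so levels of different genes can be compared. The genes were chosen by name, with their TPM levels and group differences in these same libraries already known. The values below therefore describe these genes, and no p-value is given for any of the 10.

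The cells were macrophages of wild-type mice, grown in culture from bone marrow, and were kept for 48 h with IFN-γ (50 ng/mL), with IL-10 (50 ng/mL) or in a non-polarizing condition (M0). Under each cytokine they met apoptotic regulatory T (Treg) cells and apoptotic conventional CD4+ T (Tconv) cells, killed with ATP/NAD+ and marked with a fluorescent antibody against CD4. They were then sorted into Treg-phagocytic, Tconv-phagocytic and non-phagocytic macrophages, which gave 7 groups of 4 libraries with M0. The labels of the M0 libraries name neither T cells nor a sorted fraction, so cytokine, co-culture and sorting cannot be told apart in a comparison with M0. Fractions were defined by sorting, so a difference that follows uptake, one present before it and RNA carried in with the T cells cannot be told apart, and "after uptake" below names the sorted fraction. Phagocytic libraries are named by the dye and number in their titles, and for all 8 Treg-phagocytic libraries the dye in the library name is the other one. Nothing in the labels says that replicates came from separate animals or cultures, so the spread between them may be technical.

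Integrins are surface receptors made of an α and a β chain that hold a cell to its neighbours or to the matrix. The β2 integrins of leukocytes, αLβ2 (LFA-1), αMβ2 (Mac-1, complement receptor 3) and αXβ2 (complement receptor 4), bind ICAM-1, and LFA-1 also binds ICAM-2. The integrin α4β1 (VLA-4) binds VCAM-1 and fibronectin, and α6β1 binds laminins. VCAM-1 is best known on activated endothelium, where it holds passing leukocytes, and it is also carried by some tissue macrophages.

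IFN-γ libraries were the shallowest, at 11.1% to 24.2% of the depth of the deepest library, against 48.9% to 91.6% for IL-10 and 68.7% to 100% for M0. These are relative depths read from the steps in the TPM values, and the total read counts are unknown. The 6 macrophage markers summed to between 16274 and 20985 TPM in every library, most of it Lyz2. The 6 did not move together between IFN-γ and IL-10 non-phagocytic macrophages. Lyz2 averaged more with IFN-γ, 15025 against 12882.5 TPM, and Mertk was close, at 21.5 against 23.0 TPM. The others were lower with IFN-γ, as Itgam, Itga6, Itgb1 and Itgb2 were. Csf1r averaged 407 against 932 TPM, Adgre1 509 against 813 TPM, Cd68 1362 against 1782 TPM and Fcgr1 55.7 against 191 TPM. The 11 T cell markers were all detected in every group, and their sum was 53.1 to 136 TPM in M0, 79.5 to 203 TPM with IL-10 and 434 to 831 TPM with IFN-γ. The 7 stromal markers summed to 117 to 136 TPM in M0, 83.7 to 88.3 in IL-10 non-phagocytic, 152 to 165 in IL-10 Tconv-phagocytic, 28.7 to 32.5 in IL-10 Treg-phagocytic and at most 11.6 in the IFN-γ libraries.

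Vcam1, the ligand of α4β1, ran from 0.72 to 18.7 TPM over the 28 libraries. In IL-10 non-phagocytic macrophages its level was 0.94, 1.08, 0.79 and 0.78 TPM. In IL-10 Tconv-phagocytic macrophages it was 11.2 (BV421-1), 12.1 (BV421-2), 12.8 (Ax647-1) and 8.63 TPM (Ax647-2), and in IL-10 Treg-phagocytic macrophages 18.7 (Ax647-1), 17.2 (Ax647-2), 17.5 (BV421-1) and 16.0 TPM (BV421-2). The 3 groups did not overlap, and their order was non-phagocytic, Tconv-phagocytic, Treg-phagocytic. The group means were 0.898 ± 0.142, 11.2 ± 1.83 and 17.4 ± 1.09 TPM (SD, n = 4 each). Mean TPM after Treg uptake was 19.3 times, and after Tconv uptake 12.5 times, that of the non-phagocytic group. The non-phagocytic level, the base of both ratios, rests on only about 29 to 50 reads a library.

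Under IFN-γ the pattern of Vcam1 was different. The non-phagocytic libraries held 3.34, 5.76, 5.04 and 3.28 TPM, the Tconv-phagocytic libraries 3.04 (BV421-1), 7.9 (BV421-2), 5.68 (Ax647-1) and 9.28 (Ax647-2), and the Treg-phagocytic libraries 5.84 (Ax647-1), 6.41 (Ax647-2), 5.31 (BV421-1) and 5.32 (BV421-2). All 3 groups overlapped, and the Tconv-phagocytic group had the widest spread, 6.47 ± 2.73 TPM (SD, n = 4). These levels rest on about 37 to 134 reads a library, against about 462 to 672 in the IL-10 phagocytic libraries. M0 macrophages held 1.37, 0.72, 1.04 and 1.31 TPM, below every IFN-γ library and overlapping the IL-10 non-phagocytic libraries.

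**Figure D1:**
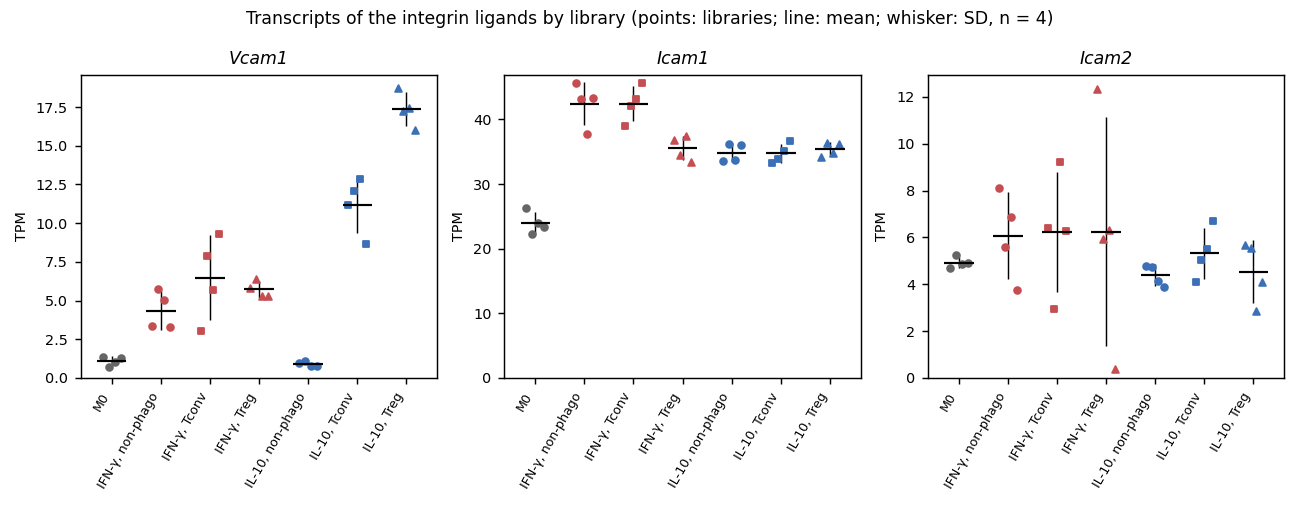
TPM of Vcam1, Icam1 and Icam2 (one panel each) in each of the 28 libraries, by group; points are libraries, the line is the mean and the whisker the SD (n = 4). Vcam1 lies near 1 TPM in M0 and in IL-10 non-phagocytic macrophages and between 16.0 and 18.7 TPM in IL-10 Treg-phagocytic macrophages.

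The order of the cytokines for Vcam1 therefore depended on the sorted fraction. Among non-phagocytic macrophages the IFN-γ group was 4.85 times the IL-10 group in mean TPM, with all 4 libraries above all 4. Among Treg-phagocytic macrophages it was 0.33 times the IL-10 group, with all 4 below all 4, and among Tconv-phagocytic macrophages 0.579 times, with 1 IFN-γ library (9.28 TPM) above the lowest IL-10 library. On the log2(TPM / scaling factor + 1) scale, on which fold changes are given from here on and which understates changes of low genes, these differences were 1.65 (SE 0.19), -1.24 (SE 0.10) and -0.65 (SE 0.27). The last, in Tconv-phagocytic macrophages, did not pass the threshold used for all genes (adjusted p under 0.05) as fitted.

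Several cell type markers moved across the same groups. T cell markers in the IL-10 groups summed to 79.5 to 92.6 TPM in non-phagocytic, 105 to 149 in Tconv-phagocytic and 171 to 203 in Treg-phagocytic libraries, the same order as Vcam1. They were higher still, 434 to 831 TPM, in the IFN-γ libraries, where Vcam1 did not exceed 9.28 TPM. Stromal markers were lowest among the IL-10 groups where Vcam1 was highest. Of 5 endothelial markers, Cldn5 was at 0 in all libraries, Cdh5 and Emcn were at most 0.05 TPM, Tek reached 2.13 TPM in 1 IFN-γ Tconv-phagocytic library, and Kdr lay between 0.94 and 3.98 TPM. The part of T cell RNA in the Vcam1 values was not tested.

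Genes most like Vcam1 in pattern were sought among those with a mean of at least 5 TPM in their highest group. Genes without a symbol and those with numbered Gm or Rik symbols were left out. By Pearson r of the log2 values over the 28 libraries, the closest were Nfe2l2 (r = 0.81), Fabp4 (r = 0.77), Eepd1 (r = 0.75), Cd74 (r = 0.74) and M6pr (r = 0.73). The points share 7 groups and the libraries' depth, so these r values describe likeness between group patterns. Group means of Nfe2l2 ran only from 107 to 133 TPM. Cd74, the invariant chain of class II antigen presentation, averaged 2277 TPM in IL-10 non-phagocytic and 3273 TPM in IL-10 Tconv-phagocytic macrophages. Its mean was lower, 2923 TPM, in IL-10 Treg-phagocytic macrophages, where Vcam1 was highest. Under IFN-γ Cd74 averaged 2825 TPM in non-phagocytic and 2155 TPM in Treg-phagocytic macrophages. Fabp4, a fatty acid binding protein, averaged 144 TPM in IL-10 non-phagocytic and 247 TPM in IL-10 Treg-phagocytic macrophages. It was nearly as high in IFN-γ Treg-phagocytic macrophages (240 TPM), where Vcam1 averaged 5.72 TPM. No gene of the 5 shared the near absence of Vcam1 in IL-10 non-phagocytic cells.

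Icam1, the common ligand of the β2 integrins, was lowest in M0, where it held 26.3, 22.3, 24.0 and 23.4 TPM. The IFN-γ non-phagocytic libraries held 45.6, 43.2, 37.7 and 43.2 TPM and the IL-10 non-phagocytic libraries 33.6, 36.2, 33.7 and 36.0 TPM. The 3 groups did not overlap. Relative to M0 the differences were 1.06 (SE 0.08) for IFN-γ and 0.51 (SE 0.05) for IL-10.

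Among the phagocytic groups, Icam1 stood apart from the non-phagocytic libraries in IFN-γ Treg-phagocytic macrophages. IFN-γ Treg-phagocytic libraries held 36.9 (Ax647-1), 34.6 (Ax647-2), 37.5 (BV421-1) and 33.4 TPM (BV421-2), all below the IFN-γ Tconv-phagocytic libraries at 39.0, 42.1, 43.2 and 45.6 TPM and below the IFN-γ non-phagocytic libraries. The differences were small, -0.16 (SE 0.07) from Tconv-phagocytic and -0.21 (SE 0.08) from non-phagocytic macrophages, and neither was past the threshold used for all genes (adjusted p under 0.05). Under IL-10 the 12 libraries lay between 33.3 and 36.7 TPM and the 3 groups overlapped. The gap between IFN-γ and IL-10 was 0.55 (SE 0.08) in non-phagocytic, 0.42 (SE 0.06) in Tconv-phagocytic and 0.24 (SE 0.05) in Treg-phagocytic macrophages, where the TPM values of both cytokines overlapped. Without scaling the last of these was 0.01.

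The promoter of Icam1 is shown because Icam1 was higher with both cytokines than in M0, and because STAT factors activated by IFN-γ and by IL-10 are known to bind elements of the GAS type. The sequence is the 250 bases before the RefSeq start on the plus strand (GRCm38.p6, chr9:21015690-21015939), with the match to a GAS element (TTCNNNGAA) in capitals.
Icam1: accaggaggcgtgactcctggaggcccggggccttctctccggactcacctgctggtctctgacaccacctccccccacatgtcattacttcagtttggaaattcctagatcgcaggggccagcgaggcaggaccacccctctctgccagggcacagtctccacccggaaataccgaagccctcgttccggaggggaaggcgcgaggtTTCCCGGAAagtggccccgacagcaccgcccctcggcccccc
The match begins 42 bases before the start. On either strand a GAS element was present in 7.02% of 32851 RefSeq promoters of the same length, an ISRE core (GAAA, NN, GAAA) in 2.98% and the NF-κB consensus in 7.25%. RefSeq promoters were matched for 5 of the 10 genes, and the windows of Itga4, Itgam, Itgax and Itgb1 held none of these 3 motifs. A match is a description of the letters in this window.

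Icam2, a ligand of LFA-1, was the least abundant member beside Vcam1, and its values were imprecise. In M0 it held 4.71, 5.25, 4.86 and 4.90 TPM. The IFN-γ Treg-phagocytic libraries held 12.4 (Ax647-1), 5.93 (Ax647-2), 6.32 (BV421-1) and 0.37 TPM (BV421-2), which correspond to about 41, 11, 19 and 1 reads. The groups overlapped in all uptake comparisons. IFN-γ non-phagocytic libraries (3.76 to 8.11 TPM) and IL-10 non-phagocytic libraries (3.88 to 4.80 TPM) also overlapped, with a difference of 0.59 (SE 0.20) that passed the threshold as fitted and not without any 1 of 7 of the 8 libraries.

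Itga4, the α chain that pairs with β1 to bind VCAM-1, varied least of the α chains. Its 28 values lay between 11.1 and 17.3 TPM, and none of the 11 group comparisons passed the threshold. The means were 16.2 ± 0.857 TPM in M0, 13.6 ± 2.12 in IFN-γ non-phagocytic and 15.9 ± 0.771 in IL-10 non-phagocytic macrophages (SD, n = 4 each). Under IL-10, both phagocytic groups (13.3 to 14.6 TPM after Treg and 13.4 to 15.0 TPM after Tconv uptake) lay below the non-phagocytic libraries (15.3 to 17.0 TPM). After scaling these differences were -0.10 (SE 0.05) and -0.06 (SE 0.05). Against M0 and against IL-10 the sign of the Itga4 difference in IFN-γ non-phagocytic macrophages depended on the scaling, being 0.01 and 0.05 with it and -0.24 and -0.22 without it.

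Itga6, the α chain of the laminin receptor, separated the cytokines in opposite directions from M0. M0 held 56.8, 58.6, 57.0 and 54.1 TPM. IFN-γ non-phagocytic libraries held 30.1, 36.1, 34.0 and 26.6 TPM, and IL-10 non-phagocytic libraries 96.7, 101.3, 95.8 and 95.7 TPM. The differences from M0 were -0.56 (SE 0.09) and 0.76 (SE 0.03), and all libraries were apart. Within each cytokine the fractions overlapped: the 12 IFN-γ libraries lay between 26.6 and 42.8 TPM and the 12 IL-10 libraries between 92.9 and 104.7 TPM. The difference of 0.13 (SE 0.03) after Tconv uptake under IL-10 passed the threshold as fitted, but the TPM of the groups overlapped, and without scaling it was 0.05 and did not pass, nor did it pass without any single library of 6 of the 8.

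Within each library Itga4 made up 22.2% ± 0.819 of the sum of Itga4 and Itga6 in M0, 30.1% ± 2.58 in IFN-γ non-phagocytic and 14.03% ± 0.272 in IL-10 non-phagocytic macrophages (SD, n = 4 each). These shares do not depend on the scaling. In IL-10 phagocytic macrophages they were 12.4% ± 0.308 after Tconv and 12.5% ± 0.572 after Treg uptake, both below every non-phagocytic library.

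Itgb1, the β chain shared by α4 and α6, was at 216 to 228 TPM in M0 and 214 to 228 TPM in IL-10 non-phagocytic macrophages, which overlapped. Under IFN-γ all 12 libraries were lower, between 110 and 142 TPM. The difference between IFN-γ non-phagocytic macrophages and M0 was -0.62 (SE 0.05), and that from IL-10 was -0.62 (SE 0.05) in non-phagocytic, -0.64 (SE 0.05) in Tconv-phagocytic and -0.47 (SE 0.07) in Treg-phagocytic macrophages. IFN-γ Treg-phagocytic libraries were the most spread, at 142 (Ax647-1), 111 (Ax647-2), 138 (BV421-1) and 120 TPM (BV421-2), and overlapped both other IFN-γ groups. Against IL-10 non-phagocytic macrophages the differences were -0.01 (SE 0.03) after Treg and -0.02 (SE 0.03) after Tconv cells.

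**Figure D2:**
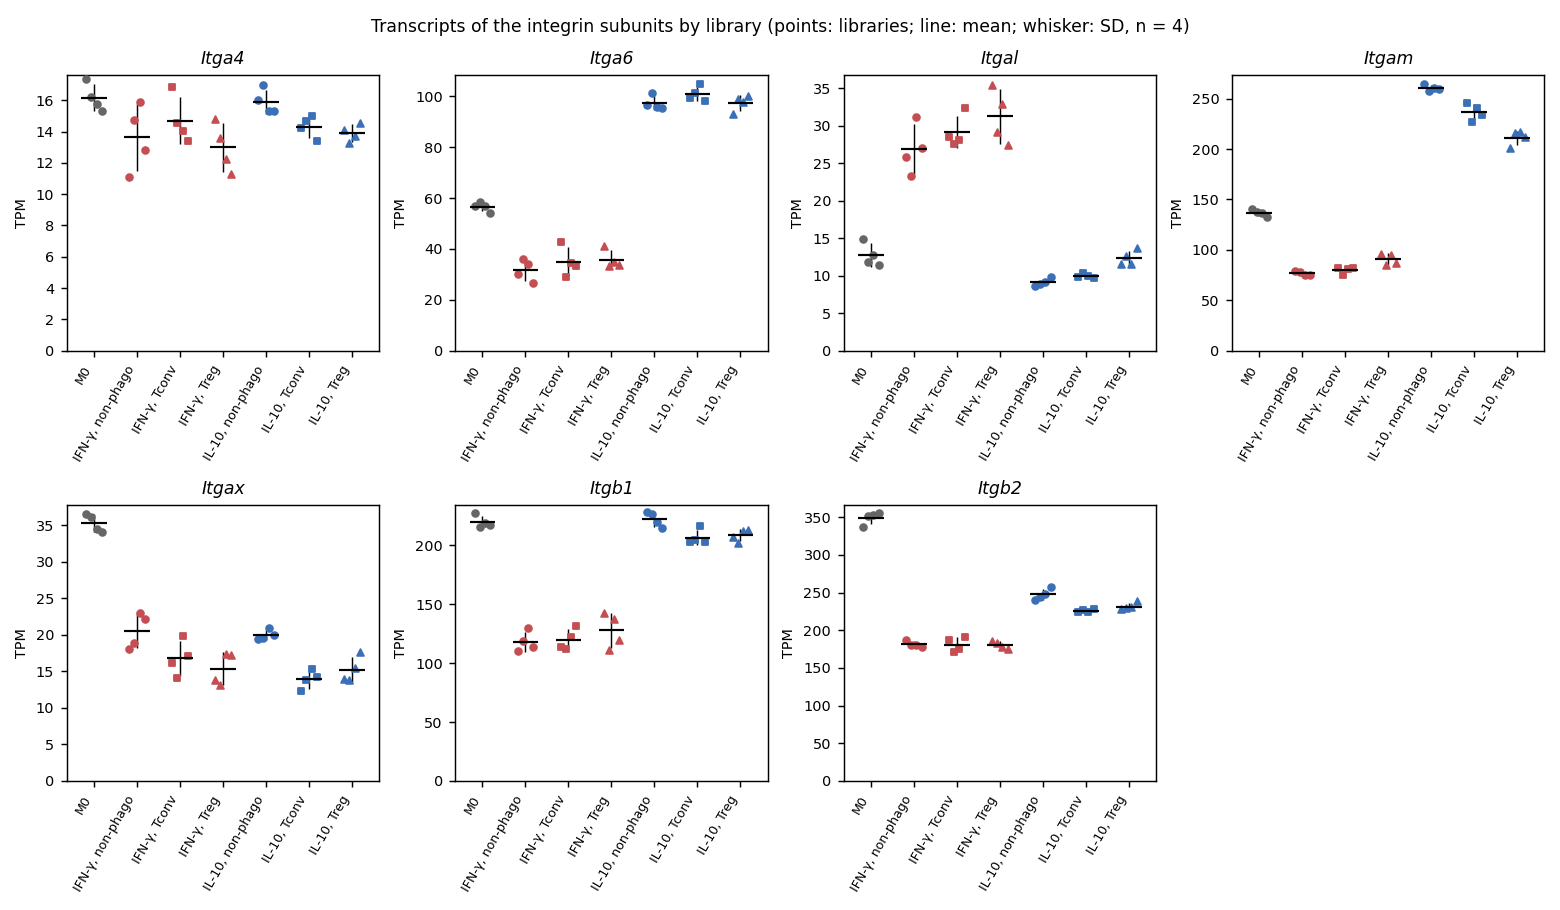
TPM of the 7 integrin subunits (one panel each) in each of the 28 libraries, by group; points are libraries, the line is the mean and the whisker the SD (n = 4). Itga6, Itgam, Itgb1 and Itgb2 lie lower in every IFN-γ library than in any IL-10 library, and Itgal lies higher.

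Itgb2, the β chain of the leukocyte integrins, had the highest mean TPM of the 10 genes in 5 of the 7 groups, and in IL-10 non-phagocytic and Tconv-phagocytic macrophages Itgam was higher. Itgb2 was highest in M0 (338, 351, 353 and 355 TPM), lower in IL-10 non-phagocytic (240, 245, 249 and 257 TPM) and lowest in IFN-γ non-phagocytic macrophages (187, 181, 180 and 178 TPM). The differences from M0 were -0.67 (SE 0.04) for IFN-γ and -0.51 (SE 0.03) for IL-10. Relative to IL-10, IFN-γ differed by -0.16 (SE 0.04) in non-phagocytic, -0.17 (SE 0.05) in Tconv-phagocytic and -0.12 (SE 0.03) in Treg-phagocytic macrophages. With scaling by the median of ratios the last of these was -0.05 and did not pass the threshold. In the IFN-γ groups the means were 182 ± 3.79, 181 ± 9.62 and 180 ± 4.91 TPM (SD, n = 4 each) for non-phagocytic, Tconv-phagocytic and Treg-phagocytic macrophages. Under IL-10 both phagocytic groups (224 to 239 TPM) lay below the non-phagocytic libraries, and after scaling the differences were -0.02 (SE 0.03) and -0.05 (SE 0.03).

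Itgam, the α chain of Mac-1, was the most abundant α chain in every group and had the widest separation between the cytokines of any α chain in TPM. M0 held 141, 137, 136 and 133 TPM. IL-10 non-phagocytic libraries held 264, 258, 261 and 260 TPM, and IFN-γ non-phagocytic libraries 78.6, 77.6, 75.1 and 75.5 TPM. The differences from M0 were 0.91 (SE 0.02) and -0.56 (SE 0.04).

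The order of the sorted fractions for Itgam also differed between the 2 cytokines. Under IFN-γ the Treg-phagocytic libraries, at 96.2 (Ax647-1), 85.0 (Ax647-2), 95.4 (BV421-1) and 87.1 TPM (BV421-2), were all above the Tconv-phagocytic libraries, at 81.5, 75.2, 81.0 and 82.2 TPM, and above the non-phagocytic ones. The differences were 0.27 (SE 0.06) and 0.28 (SE 0.05). Under IL-10 the Treg-phagocytic libraries, at 201.0 (Ax647-1), 215 (Ax647-2), 217 (BV421-1) and 212 TPM (BV421-2), were all below the Tconv-phagocytic libraries, at 246, 227, 241 and 234 TPM, which in turn were all below the non-phagocytic ones. The differences of the Treg-phagocytic group were -0.17 (SE 0.03) from Tconv-phagocytic and -0.22 (SE 0.03) from non-phagocytic macrophages. Of these 4 differences, that between IL-10 Treg-phagocytic and Tconv-phagocytic macrophages did not pass the threshold. After scaling, IL-10 Tconv-phagocytic macrophages differed from non-phagocytic ones by only -0.06 (SE 0.03), which did not pass. Without scaling that difference was -0.14 and passed.

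Itgal, the α chain of LFA-1, ran the other way between the cytokines. It held 15.0, 11.9, 12.7 and 11.4 TPM in M0, 25.9, 23.3, 31.2 and 27.1 TPM in IFN-γ non-phagocytic and 8.70, 8.87, 9.18 and 9.79 TPM in IL-10 non-phagocytic macrophages. The differences from M0 were 1.28 (SE 0.11) and -0.44 (SE 0.08). After uptake under IL-10 it was 9.87, 10.4, 9.97 and 9.72 TPM in Tconv-phagocytic and 11.5, 12.6, 11.6 and 13.7 TPM in Treg-phagocytic libraries. The Treg-phagocytic group was above both others with no overlap, by 0.27 (SE 0.06) and 0.47 (SE 0.07). Under IFN-γ the Treg-phagocytic group, at 35.5, 29.2, 32.9 and 27.5 TPM, overlapped both other groups.

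LFA-1 is also a major integrin of T cells, and the summed T cell markers moved with Itgal. Both were highest in the IFN-γ libraries. Among the IL-10 groups both were lowest in non-phagocytic and highest in Treg-phagocytic libraries, while M0 held more Itgal (11.4 to 15.0 TPM) than IL-10 non-phagocytic macrophages (8.70 to 9.79 TPM) at T cell marker sums that overlapped. The mean level of Cd3e was 21.7 TPM in IFN-γ non-phagocytic, 3.97 in IL-10 non-phagocytic and 2.21 in M0 macrophages, and none of the T cell markers was at 0 in a whole group. Cd28, alone among the T cell markers, was not higher in IFN-γ non-phagocytic macrophages than in M0, at 18.4 against 19.3 TPM. It averaged 11.3 TPM in IL-10 non-phagocytic macrophages. The part of T cell RNA in the Itgal values was not tested. In bulk libraries, more cells of a type and more RNA per cell cannot be told apart.

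**Figure D3:**
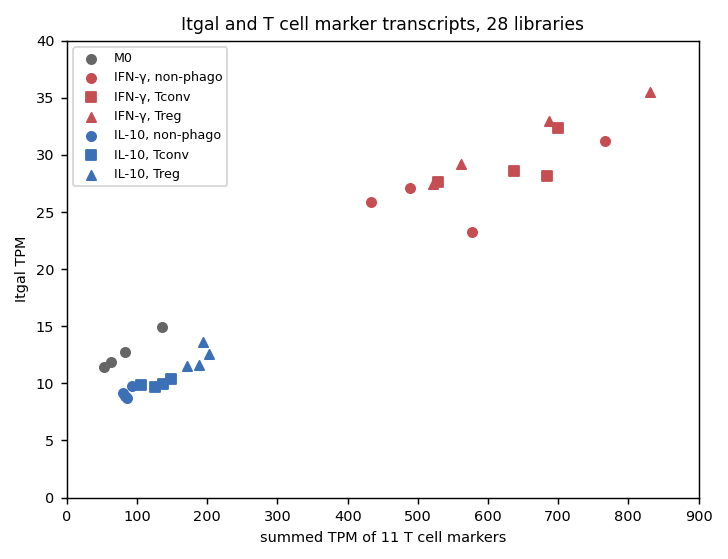
TPM of Itgal (vertical axis) against the summed TPM of the 11 T cell markers (horizontal axis) in the 28 libraries; each point is a library, marked by group. The 12 IFN-γ libraries lie at 434 to 831 TPM of T cell markers and at 23.3 to 35.5 TPM of Itgal, apart from all IL-10 and M0 libraries.

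Itgax, the α chain of complement receptor 4 that is also used as a marker of dendritic cells, was highest in M0 (36.6, 36.1, 34.5 and 34.1 TPM) and lower with both cytokines. IFN-γ non-phagocytic libraries held 18.1, 18.9, 22.9 and 22.2 TPM and IL-10 non-phagocytic libraries 19.5, 19.6, 20.9 and 19.9 TPM. These 2 groups overlapped, and their difference of 0.30 (SE 0.09) after scaling was 0.03 without it. After uptake Itgax was lower in all 4 comparisons with the non-phagocytic group, by -0.42 (SE 0.07) after Tconv and -0.30 (SE 0.08) after Treg uptake under IL-10, and by -0.33 (SE 0.13) and -0.37 (SE 0.14) under IFN-γ. Both IL-10 differences passed the threshold and both IFN-γ differences did not. The difference after Treg uptake under IL-10 no longer passed without any single library of 7 of the 8, and ranged from -0.31 to -0.26 in those fits. The 4 IL-10 Tconv-phagocytic libraries held 12.3, 13.8, 15.3 and 14.2 TPM and the 4 Treg-phagocytic libraries 14.01, 13.8, 15.4 and 17.6 TPM, all below the non-phagocytic libraries.

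Set against one another within each library, the 3 α chains of β2 changed their proportions. Itgam made up 74.0% ± 0.564 of the sum of Itgal, Itgam and Itgax in M0, 61.9% ± 3.15 in IFN-γ non-phagocytic and 90.0% ± 0.325 in IL-10 non-phagocytic macrophages (SD, n = 4 each). Itgal made up 6.87% ± 0.651, 21.6% ± 1.97 and 3.15% ± 0.170, and Itgax 19.1% ± 0.283, 16.5% ± 1.496 and 6.89% ± 0.220 in the same groups. There were 28.6 ± 1.60 transcripts of Itgam per transcript of Itgal in IL-10 non-phagocytic macrophages, 23.7 ± 1.31 after Tconv uptake, 17.2 ± 1.31 after Treg uptake and 2.89 ± 0.395 in IFN-γ non-phagocytic macrophages. The IL-10 groups did not overlap in this ratio. The T cell markers given beside Itgal also differed between these groups. The part of T cell RNA in these shares and ratios was not tested.

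The sum of the 3 α chains per Itgb2 transcript was 0.530 ± 0.029 in M0, 0.684 ± 0.030 in IFN-γ non-phagocytic and 1.17 ± 0.038 in IL-10 non-phagocytic macrophages (SD, n = 4 each). After Treg uptake it was 1.03 ± 0.030 under IL-10 and 0.762 ± 0.054 under IFN-γ. Itgad, the remaining β2 partner, averaged at most 2.21 TPM in any group and is not in these sums. Itgam and Itgax lie 11055 bases apart, and Itgal and Itgam 727501 bases apart, on chromosome 7 (GRCm38), so the 3 α chains with these different patterns share a chromosomal region.

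**Figure D4:**
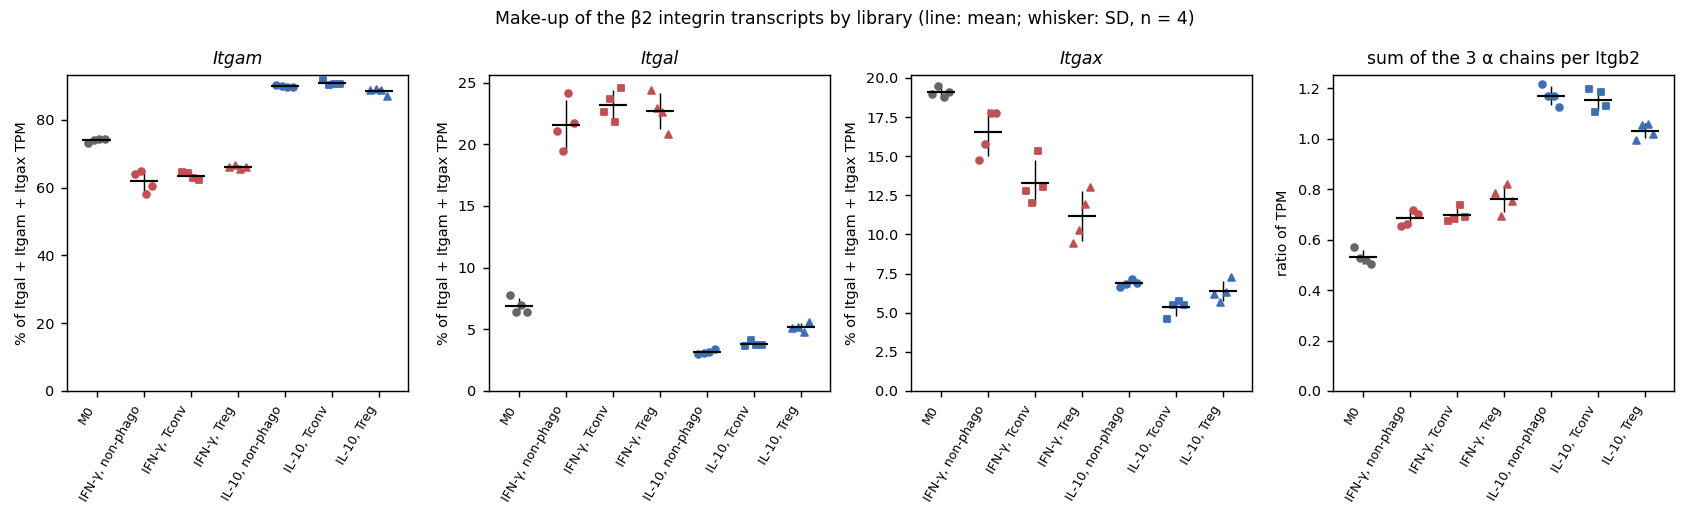
Percent of the summed TPM of Itgal, Itgam and Itgax held by each α chain (first 3 panels) and that sum per Itgb2 TPM (last panel) in each library, by group; the line is the mean and the whisker the SD (n = 4). Itgam holds about 90% in the IL-10 libraries and 62% to 66% on average in the IFN-γ groups, where Itgal holds over 20% on average.

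Counted over the 10 genes, the cytokine comparisons held most differences. Between IFN-γ and IL-10 non-phagocytic macrophages 9 of the 10 passed the threshold, where 51.4% of all tested genes did, and 7 had groups apart in TPM (53.9% of all genes). In Treg-phagocytic macrophages 7 passed (38.3%) and 6 were apart (45.2%), and in Tconv-phagocytic macrophages 7 passed (52.5%) and 6 were apart (51.7%). Against M0, 8 passed (53.1%) and 8 were apart (55.2%) for IFN-γ, and 6 passed (26.6%) and 6 were apart (29.1%) for IL-10. The median difference of the 10 was 0.18, 0.01, -0.00, -0.24 and -0.09 in these 5 comparisons, against -0.02, -0.07, -0.03, -0.02 and 0.00 over all tested genes. Since the genes were chosen with these contrasts known, nothing is read from these counts.

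The uptake comparisons held fewer. Against IL-10 non-phagocytic macrophages, 4 of the 10 passed after Treg uptake (Vcam1, Itgal, Itgam and Itgax; 11.4% of all genes) with 7 apart in TPM (21.6%), and 3 passed after Tconv uptake (Vcam1, Itga6 and Itgax; 6.14%) with 5 apart (16.9%). Between IL-10 Treg-phagocytic and Tconv-phagocytic macrophages 1 passed (Vcam1; 1.39%) and 3 were apart (8.7%). Between the same fractions under IFN-γ 1 passed (Itgam; 11.7%) and 2 were apart (17.7%). Against IFN-γ non-phagocytic macrophages 1 passed after Treg uptake (Itgam; 8.0%) with 3 apart (14.5%). After Tconv uptake 0 of the 10 passed in limma (0.00734%, which is 1 gene; 878 of all genes had an unadjusted p under 0.05) and 0 were apart (3.66%). In the model of all 28 libraries 0 of the 10 passed there as well.

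Comparisons that share a non-phagocytic group are not independent of each other. Without scaling, the split after Tconv uptake under IL-10 was 1 higher and 3 lower, since Itga6 was lost and Itgam and Itgb2 passed as lower.

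The Vcam1 difference between IL-10 Treg-phagocytic and Tconv-phagocytic macrophages was 0.60 (SE 0.11), with all 4 libraries above all 4. It was 0.71 within the libraries titled Ax647 and 0.48 within those titled BV421, where 2 libraries a group left no gene past the threshold. It no longer passed without any single library of 6 of the 8, nor in the model of all 28 libraries. The corresponding Itgam difference under IFN-γ was 0.24 within Ax647 and 0.31 within BV421, and it no longer passed without 1 Treg-phagocytic library (BV421-1), without 1 Tconv-phagocytic library (Ax647-1) or without scaling (0.18).

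**Figure D5:**
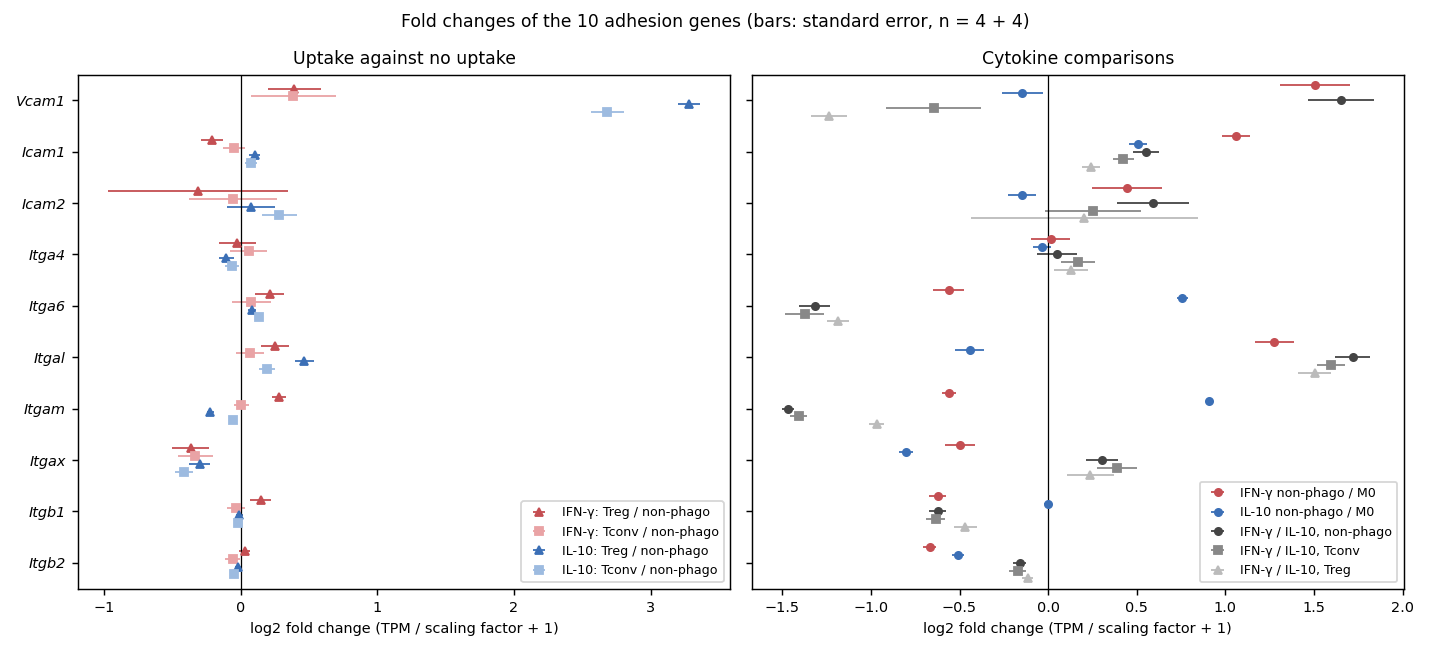
Fold change (log2 of TPM / scaling factor + 1, horizontal axis) of each of the 10 genes, with its standard error, after uptake against no uptake (left) and between cytokines (right); each comparison is of 4 against 4 libraries. On the left Vcam1 under IL-10 stands at 2.68 and 3.28, while no other gene passes 0.5 in size.

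The differences between fractions were compared between the cytokines by a difference of differences with 1 variance weight per group. For Vcam1 the difference under IFN-γ minus that under IL-10 was -2.89 (SE 0.21) for Treg-phagocytic and -2.30 (SE 0.33) for Tconv-phagocytic against non-phagocytic macrophages. For Itgam it was 0.50 (SE 0.06) for Treg-phagocytic against non-phagocytic and 0.44 (SE 0.08) for Treg-phagocytic against Tconv-phagocytic macrophages. No other member passed in any of the 3 differences. Of all genes, 8.03% passed in the difference for Treg against non-phagocytic, 1.09% in that for Tconv against non-phagocytic and 12.1% in that for Treg against Tconv-phagocytic macrophages.

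Other genes of adhesion were described from 5 lists of 79 genes, of which 53 were tested with limma and adjusted over all 13631 genes (Benjamini-Hochberg). The lists were drawn up with earlier results of these data known, so the p-values below describe these genes and are not independent tests. Genes are named by a rule (given with the processing) that requires groups whose TPM do not overlap. In IL-10 Treg-phagocytic against non-phagocytic macrophages 7 of the 53 genes rose and 13 fell, where 11.4% of all genes passed, with a median difference of -0.03 against 0.00 for all genes. These 20 calls became 11 to 15 with 1 library left out and 9 in the model of all 28 libraries. In IL-10 Tconv-phagocytic macrophages 6 rose and 5 fell (6.14% of all genes; 5 and 11 without scaling), which became 6 to 10 calls with 1 library left out and 4 in the model of all 28 libraries. Under IFN-γ 3 rose and 1 fell in Treg-phagocytic macrophages (8.0% of all genes; 2 to 4 calls with 1 library left out and 13 in the model of all 28 libraries). In IFN-γ Tconv-phagocytic macrophages 0 of the 53 passed in limma (0.00734% of all genes), and 2 did in the model of all 28 libraries.

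Of the 9 matrix ligands of α4 and β1 integrins tested, 0 rose and 4 fell after Treg uptake under IL-10 (11.4% of all genes passed). After Tconv uptake 1 rose and 2 fell (6.14% of all genes passed). Fn1, fibronectin, which α4β1 also binds, fell after Treg uptake from 34.6 ± 1.45 to 14.4 ± 0.942 TPM (SD, n = 4 each), by 1.13 on the log2 scale (SE 0.06, limma adjusted p = 2.49e-05). It was also lower than after Tconv uptake (30.4 ± 1.01 TPM), with a difference of -1.03 (SE 0.05, limma adjusted p = 3.68e-05). Thbs1, thrombospondin 1, rose after Tconv uptake from 420 ± 4.06 to 487 ± 4.91 TPM, by 0.30 (SE 0.02, limma adjusted p = 8.23e-05). After Treg uptake it was lower than after Tconv uptake, at 378 ± 2.66 TPM, by -0.37 (SE 0.02, limma adjusted p = 2.98e-05). The summed stromal markers followed the order of Thbs1, with 83.7 to 88.3 TPM in non-phagocytic, 152 to 165 after Tconv and 28.7 to 32.5 after Treg uptake. Fn1 shared their low level after Treg uptake but was not higher after Tconv uptake. The part of stromal RNA in both genes was not tested.

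Spp1, osteopontin, an α4β1 and αv ligand, was the most abundant of the partner genes named here, at 2293 ± 41.8 TPM in IL-10 non-phagocytic macrophages. It fell to 1633 ± 47.2 TPM after Tconv uptake, a difference of -0.41 (SE 0.03, limma adjusted p = 0.00016). After Treg uptake it also fell, to 1821 ± 34.1 TPM, a difference of -0.25 (SE 0.02, limma adjusted p = 0.00028). Under IFN-γ it was at 525 ± 17.5 TPM in non-phagocytic and rose to 588 ± 19.6 TPM after Treg uptake, by 0.20 (SE 0.03, limma adjusted p = 0.012). Lamc1, a laminin chain of the kind α6β1 binds, fell after Treg uptake under IL-10 from 29.2 ± 0.539 to 22.7 ± 0.381 TPM, by 0.27 (SE 0.04, limma adjusted p = 0.0031). After Tconv uptake Lamc1 was at 24.8 ± 0.397 TPM, a difference of -0.14 (SE 0.03, limma adjusted p = 0.045). That call was lost when any single library was left out. Between IFN-γ and IL-10 non-phagocytic macrophages, 7 of the 9 matrix genes tested fell and 0 rose, where 3529 of all 13631 genes fell. The stromal markers summed to 7.66 to 11.6 TPM in the IFN-γ and 83.7 to 88.3 TPM in the IL-10 group, and their part was not tested. Fn1 was at -2.90 (SE 0.24, limma adjusted p = 1.23e-05), Thbs1 at -2.62 (SE 0.03, limma adjusted p = 3.00e-10) and Spp1 at -1.84 (SE 0.03, limma adjusted p = 1.15e-09).

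Among other integrin subunits, Itgav, the αv chain that binds osteopontin and takes part in the uptake of dying cells, rose after Treg uptake under IFN-γ. It went from 18.0 ± 2.39 to 27.7 ± 2.95 TPM (SD, n = 4 each), by 0.64 (SE 0.11, limma adjusted p = 0.014), and stood above Tconv-phagocytic macrophages (19.7 ± 2.40 TPM) by 0.57 (SE 0.11, limma adjusted p = 0.013). Under IL-10 it averaged 45.7 TPM in non-phagocytic and 37.6 TPM in Treg-phagocytic macrophages. The difference between Treg-phagocytic and non-phagocytic macrophages was larger under IFN-γ than under IL-10 by 0.84 (SE 0.13, limma adjusted p = 0.00069), and this test was singled out after its value was seen. Itgb7, the β chain that pairs with α4 to bind MAdCAM-1, averaged 103 TPM in IFN-γ and 41.5 TPM in IL-10 Treg-phagocytic macrophages, a rise of 1.54 (SE 0.10, limma adjusted p = 1.34e-05). The rise was similar in non-phagocytic (1.46, SE 0.08) and Tconv-phagocytic macrophages (1.56, SE 0.08). Under IFN-γ, Treg-phagocytic macrophages differed from non-phagocytic ones by 0.001 (SE 0.08). T cells also carry Itgb7, and the T cell markers summed to 522 to 831 TPM in IFN-γ and 171 to 203 TPM in IL-10 Treg-phagocytic libraries. M0 averaged 74.7 TPM of Itgb7 at T cell marker sums of 53.1 to 136 TPM. The part of T cell RNA in the Itgb7 values was not tested.

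Of the 22 integrin activators and adaptors tested, 1 rose after Treg uptake under IFN-γ, where 8.0% of all genes passed. That was Rap1a, a small GTPase that switches integrins on, which went from 129 ± 8.71 to 159 ± 6.96 TPM (SD, n = 4 each), by 0.33 (SE 0.07, limma adjusted p = 0.026). That call was lost without any single library of 7 of the 8. Under IL-10, 3 rose and 4 fell after Treg uptake, where 11.4% of all genes passed. Rap1a was among those that rose, by 0.28 (SE 0.06, limma adjusted p = 0.023), with TPM that overlapped between the groups. Skap1, an adaptor of T cells, rose from 1.66 ± 0.510 to 5.34 ± 0.903 TPM, by 1.30 (SE 0.15, limma adjusted p = 0.0017), and Vcl, vinculin, fell from 7.998 ± 0.613 to 5.25 ± 0.393 TPM, by 0.45 (SE 0.08, limma adjusted p = 0.01). The Vcl call and that of Lamc1 after Treg uptake were lost in the model of all 28 libraries. Lims1, a partner of integrin-linked kinase, fell after Tconv uptake from 50.0 ± 2.07 to 38.6 ± 2.29 TPM, by 0.28 (SE 0.05, limma adjusted p = 0.012). Fyb, an adaptor known as ADAP, was higher in IL-10 non-phagocytic macrophages (593 ± 11.8 TPM) than in M0 (277 ± 9.15 TPM), by 1.08 (SE 0.02, limma adjusted p = 1.56e-08).

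Between IFN-γ and IL-10 non-phagocytic macrophages Skap1 rose by 2.59 (SE 0.24, limma adjusted p = 2.82e-05) and Rasgrp2, an activator of Rap1, by 1.85 (SE 0.20, limma adjusted p = 6.45e-05). T cell markers moved the same way here and in the IL-10 comparison given for Skap1, with the sums given above, and their part in both genes was not tested. Alcam, an immunoglobulin-family adhesion molecule, fell from 135 ± 2.83 TPM in M0 to 71.6 ± 6.51 TPM in IL-10 non-phagocytic macrophages, by 0.92 (SE 0.06, limma adjusted p = 1.06e-05).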

How the data were processed

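Per the labels' protocols, RNA was extracted with RNAiso PLUS, selected for poly(A) and made into 28 libraries (NEBNext Ultra II Directional). The authors deposited TPM per Ensembl gene ID, and the submitters' processing notes name STAR, RSEM and mm10, with no versions. A symbol was found for 55141 of 55487 IDs (GENCODE), and 0 of 378 library pairs were identical. TPM keeps no total count. Relative depth was read from genes with 1 annotated transcript, where 89.3% to 92.5% of low values were whole reads within 0.15 (chance gives 30%).

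TPM were divided by a trimmed mean scaling factor (30% of ratios and 5% of levels trimmed) and tested as log2(value + 1) with limma 3.58.1 (lmFit, eBayes with trend; R 4.3.3). Each fit held only the 4 + 4 libraries compared, since variance weights per group ran from 0.33 to 2.19. The test covered the 13631 genes at 1 TPM or more in 4 or more libraries, with Benjamini-Hochberg adjustment and a threshold of 0.05. The model was tested on simulated data. Overlap between groups was read from the deposited TPM. Without scaling, the median of all genes was shifted by -0.26, -0.26 and -0.15 (log2) between IFN-γ and IL-10 in non-phagocytic, Treg-phagocytic and Tconv-phagocytic macrophages and by -0.24 between IFN-γ and M0, and reported differences are relative to that shift.

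The members and the gene lists were chosen with earlier results of these data known, among them the Vcam1 values under IL-10. Named genes of the lists were, per comparison, the 3 largest rises and 3 largest falls past the threshold with groups apart and a mean of at least 5 TPM, of which a selection is printed; 1 gene is not reported here. Protein sequences were not used here. The alternatives tried were other scalings, pseudocounts, filters and variance models, a replicate block, each dye alone and each library left out.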

Additional observations from a re-analysis of the deposited data

Results flagged for a closer look

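For 2 of the 70 sets of 4 libraries, 1 library stood apart from the other 3 by more than Dixon's 95% critical value, where chance alone gives about 1 in 20. Itgam in IFN-γ Tconv-phagocytic macrophages was 75.2 TPM in BV421-2, against 81.0 to 82.2 TPM in the other libraries. Itgb1 in IL-10 Tconv-phagocytic macrophages was 216 TPM in Ax647-1, against 203 to 204 TPM in the others.

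In the test of the difference between sorted fractions across the cytokines, run over all genes, Vcam1 and Itgam passed. Both were chosen with their group differences known, so these values describe them. Of all genes, 8.03% passed for Treg-phagocytic against non-phagocytic macrophages and 1.09% for Tconv-phagocytic against non-phagocytic. For Treg-phagocytic against Tconv-phagocytic macrophages 12.1% passed. For Vcam1 the difference under IFN-γ minus that under IL-10 was -2.89 for Treg-phagocytic and -2.30 for Tconv-phagocytic against non-phagocytic macrophages. For Itgam it was 0.50 for Treg-phagocytic against non-phagocytic and 0.44 for Treg-phagocytic against Tconv-phagocytic macrophages. All 4 passed the threshold with and without variance weights, and without weights Icam1 also passed for Treg-phagocytic against non-phagocytic macrophages, at -0.31.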

How the results depend on the processing

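The alternatives covered scaling, pseudocount, filter, variance model, replicate block, dye and each library left out. No member difference that passed changed sign in any of them. Differences that did not pass could: 11 did so with the scaling, Icam2 between IFN-γ Treg-phagocytic and Tconv-phagocytic macrophages went from -0.26 to 0.43 without Treg-phagocytic BV421-2, and Itgax there was above 0 within BV421 and below 0 within Ax647. With all 28 libraries in 1 model, 2 members (in place of 1) and 18 partner genes (4) passed between IFN-γ Treg-phagocytic and Tconv-phagocytic macrophages, 5 members (1) and 13 partners (4) for IFN-γ Treg-phagocytic against non-phagocytic, 2 partners (0) for IFN-γ Tconv-phagocytic against non-phagocytic, and 9 (20) and 4 partners (11) for IL-10 Treg-phagocytic and Tconv-phagocytic against non-phagocytic macrophages. With 1 variance weight per group, 7 partners (4) passed between IFN-γ Treg-phagocytic and Tconv-phagocytic macrophages, and 3 members (1) and 8 partners (5) between the IL-10 ones. Without scaling 0 members passed between IFN-γ Treg-phagocytic and Tconv-phagocytic macrophages, and with a pseudocount of 0.1 or no filter 0 between the IL-10 ones. Within BV421 and within Ax647, 0 members and 0 partners passed in either of these comparisons. The deviations of same-numbered libraries from their group means had correlations from -0.07 to 0.09. The same-numbered library was the closest match in some cases and not in others. With 4 libraries a group this cannot decide whether the numbers pair libraries. With a replicate block by title, 0 members passed between Treg-phagocytic and Tconv-phagocytic macrophages under IFN-γ and 0 members and 3 partners under IL-10. With a replicate block by file number, 0 members and 0 partners passed for IFN-γ Treg-phagocytic, 10 partners for IL-10 Treg-phagocytic and 5 partners for IL-10 Tconv-phagocytic against non-phagocytic macrophages.

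Leaving out 1 library, the members passing ranged from 0 to 1 between Treg-phagocytic and Tconv-phagocytic macrophages under each cytokine. Under IFN-γ the call was lost without Treg-phagocytic BV421-1 or Tconv-phagocytic Ax647-1, and under IL-10 without any Treg-phagocytic library or either BV421 Tconv-phagocytic library. Partners ranged from 2 to 4 for IFN-γ Treg-phagocytic against non-phagocytic (2 without Treg-phagocytic Ax647-1, BV421-1 or BV421-2, or non-phagocytic 2 or 4). They ranged from 3 to 5 between IL-10 Treg-phagocytic and Tconv-phagocytic macrophages (3 without Treg-phagocytic Ax647-2 or BV421-1, or Tconv-phagocytic BV421-2 or Ax647-2). Against IL-10 non-phagocytic macrophages they ranged from 11 to 15 for Treg-phagocytic (main 20; 11 without non-phagocytic 3) and from 6 to 10 for Tconv-phagocytic (main 11; 6 without BV421-2, 7 without non-phagocytic 3). Where no cause is given by fewer libraries or genes tested, the cause was not tested. The low depth of the IFN-γ libraries limits Vcam1 and Icam2 there.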
